A study of Mus musculus with 6 samples.

Results

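YAP (gene Yap1) and TAZ (gene Wwtr1) are paralogous coactivators that have no DNA-binding domain of their own and act on genes through the TEAD transcription factors. The Hippo kinases LATS1 and LATS2 phosphorylate both coactivators, which keeps them in the cytoplasm or marks them for degradation, so the pathway acts largely on the proteins and not on their transcripts. In mammary epithelium it responds to cell density, cell shape and the stiffness of the matrix. The results below follow 10 genes of this pathway, taken from a list by name: the coactivators Yap1 and Wwtr1, the DNA-binding factor Tead1, the kinase Lats2, the regulators Ajuba and Amotl2, and the target genes Ccn1, Ccn2, Ankrd1 and Axl. All 10 were among the 47643 genes of the files and all 10 passed the filter on low counts, as did 12088 genes in all. Lats2 and Amotl2 are also widely used as targets, which feed back on the coactivators.

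The cells came from 6 tumors of female MMTV-PyMT mice, strain FVB/N-Tg (MMTV-PyVT)634Mul/J, in which the MMTV promoter drives the polyoma middle T antigen in mammary epithelium. The treatment was B20-4.1.1 in all 6, a blocking antibody to VEGF-A given intraperitoneally from 7 weeks of age at 5 mg/kg, with 2 injections per week for 6 weeks. The sorted CD45-EPCAM+ cells of 1 tumor make 1 library, and the 6 libraries form 1 group, numbered here as tumors 1 to 6. The study sorts treated tumors into low-hypoxia (LH) and high-hypoxia (HH) classes, but the labels do not give the class of a tumor, so groups were not compared, and tumors without the antibody were not analysed here.

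Counts on genes ran from 2509482 in tumor 2 to 5893246 in tumor 1, and 3 counts in a library are worth 0.509 to 1.20 CPM, counts scaled to the library total. The library of tumor 1 stood apart, with a median correlation of 0.79 with the other 5 over 8873 genes (log2 CPM), against 0.91 to 0.94 for the others. The luminal markers (7 genes, Epcam and Krt18 among them) summed to 3957 to 4874 CPM in all 6 libraries. Fibroblast markers (7 genes) summed to 15.3 to 26.4 CPM and endothelial markers (5 genes) to 1.59 to 4.61 CPM. The identifiers in the labels begin with QAF for tumors 1, 4, 5 and 6 and with QSD for tumors 2 and 3, and what the prefixes stand for is not stated. In sorted bulk samples, fewer cells of a type and less RNA per cell cannot be told apart.

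The promoters are shown first because the genes were chosen as members or targets of a pathway that acts through TEAD. TEAD factors bind the core GGAATG, which reads CATTCC on the other strand. RefSeq windows on GRCm38.p6, from 250 bases before to 50 bases after an annotated start, were at hand for 8 of the 10 genes, namely Ccn1, Ankrd1, Amotl2, Axl, Yap1, Wwtr1, Lats2 and Ajuba. All 8 held the core on one strand or the other, and in 7 of the 8 it lay before the start. Of the 27025 genes with a window, 16.6% held the core and 14.4% held it before the start. Genes differ in their number of windows, and the motif was searched after the members' windows had been seen, so the count is a description. Several of these genes are on the list because they are known YAP and TEAD targets, so the motif is not independent of how they were chosen. The sequences below are those of the target with the highest level, of the target that varied most, and of both coactivators. They run 5′ to 3′ on the strand of the gene, with the core in capitals.
Ccn1, chr3:145650058-145650113, minus strand: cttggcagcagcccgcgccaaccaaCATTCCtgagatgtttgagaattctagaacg
Ankrd1, chr19:36119937-36120079, minus strand: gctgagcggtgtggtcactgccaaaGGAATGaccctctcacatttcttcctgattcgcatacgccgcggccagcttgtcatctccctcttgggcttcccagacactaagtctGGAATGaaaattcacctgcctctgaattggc
Yap1, chr9:8004707-8004762, minus strand: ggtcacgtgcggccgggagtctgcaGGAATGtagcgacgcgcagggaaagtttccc
Wwtr1, chr3:57576016-57576071, minus strand: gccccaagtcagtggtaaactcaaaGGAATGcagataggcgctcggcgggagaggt

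Ankrd1 and Ajuba each held 2 matches, and 1.57% of all genes with a window held at least 2. In Ankrd1 they began 210 and 123 bases before the start, and in Ajuba 186 and 164 bases before it. The single match of Amotl2 was the nearest to a start among those upstream, at 65 bases, and that of Axl the farthest, at 233 bases. In Lats2 the match lay after the start in 1 of its 2 windows, and the other window held none. A match names letters in a window and does not show that a TEAD factor is bound there.

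**Figure D1:**
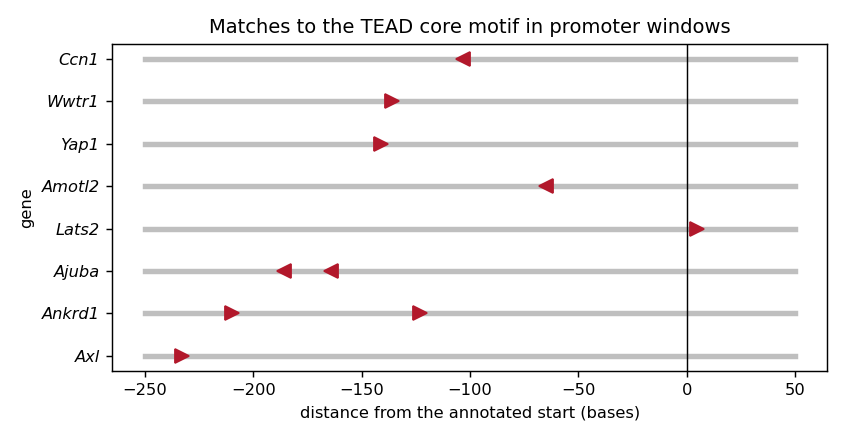
Positions of the core GGAATG in the promoter windows of 8 genes. The horizontal axis is the distance from the annotated start in bases, and grey bars are the windows (for Wwtr1 and Lats2 the first of their windows). Triangles are matches that point right on the strand of the gene and left on the other strand. A match lies before the start in every gene shown other than Lats2, and Ankrd1 and Ajuba have 2.

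Of the coactivators, Wwtr1 was above Yap1 in 4 of 6 tumors by CPM, which is not divided by length, with medians of 93.5 and 86.6. In TPM, counts divided by gene length and scaled to the library, the medians were 49.6 for Wwtr1 and 23.8 for Yap1. Wwtr1 was then above Yap1 in 6 of 6 tumors. The method reads the 3′ end of a transcript, where counts do not grow with length, so the 6 of 6 rests on the division by length. On the CPM scale Yap1 was at 77.4, 59.4, 95.8, 108, 119 and 70.3 in tumors 1 to 6. Wwtr1 was at 62.1, 82.5, 80.3, 138 and 153 CPM in tumors 1 to 5 and at 104 CPM in tumor 6. Both were highest in tumor 5 and next highest in tumor 4, but their lowest libraries differed, tumor 2 for Yap1 and tumor 1 for Wwtr1. The ratio of Wwtr1 to Yap1 counts, used here, like the other ratios of counts below, to compare tumors and not the genes and chosen after the values were seen, was 0.80 in tumor 1 and 0.84 in tumor 3, and 1.28 to 1.49 in the other 4. Yap1 varied least of the 10 genes, with a highest over lowest ratio of 1.87 after TMM scaling, together with Amotl2, also at 1.87.

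Tead1 and Lats2 were lowest in tumor 1 and highest in tumor 5. Tead1, the DNA-binding partner, was at 23.2, 68.5, 47.0, 72.3, 94.4 and 49.6 CPM in tumors 1 to 6. The tumors other than tumor 1 span 2.01-fold, and all 6 span 4.06-fold. Tead2, another factor of the family, was at 205 CPM in tumor 1 and at 87.1 CPM in tumor 5, the reverse order at these ends. The ratio of Tead1 to Tead2 counts was therefore 0.11 in tumor 1 and 1.08 in tumor 5, with 0.28 to 0.79 between them. Lats2, the kinase that inhibits the coactivators, was at 7.13, 12.4, 20.1, 17.9, 33.1 and 13.5 CPM, so tumor 5 was 1.65 times the next tumor.

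The regulators Amotl2 and Ajuba had different orders over the tumors. Amotl2, an angiomotin-like junction protein that holds YAP in the cytoplasm, was at 20.5, 24.3, 29.8, 31.3, 38.7 and 21.3 CPM in tumors 1 to 6. Ajuba, a LIM protein that inhibits LATS kinases, was at 27.0, 7.17, 10.9, 12.3, 18.0 and 9.18 CPM. Ajuba was the one member with its highest level in tumor 1, and tumor 5 was next.

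Of the target genes, Ccn1 had a high and fairly even level, Ccn2 and Ankrd1 differed widely between tumors, and Axl had few counts. Ccn1, a secreted matricellular protein also known as Cyr61, had the highest median of the 10 genes, 195 TPM, and was above Wwtr1 in 6 of 6 tumors by TPM and in 4 of 6 by CPM. It was at 163, 141, 174, 191, 140 and 76.1 CPM, so that tumor 6 was the lowest and tumor 5 was not raised. Ccn2, its relative also known as connective tissue growth factor (ENSMUSG00000019997, chr10:24595442-24598683 on the plus strand of GRCm38), was at 4.75, 4.38, 7.27, 22.1, 46.9 and 10.3 CPM. Tumors 4 and 5 were above the other 4, and tumor 5 was 2.12 times tumor 4. The ratio of Ccn1 to Ccn2 counts went from 34.4 in tumor 1 down to 2.99 in tumor 5.

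Ankrd1, a nuclear ankyrin repeat protein that is widely used as a readout of YAP (ENSMUSG00000024803, chr19:36111961-36120099 on the minus strand), differed most. It was at 1.19, 5.98, 4.85, 9.36, 78.1 and 6.05 CPM in tumors 1 to 6, from 7 counts in tumor 1 to 391 in tumor 5. Tumor 5 was 8.34 times the next tumor and 13.1 times the median of the other 5. The exact 95% Poisson interval of its count, which treats reads as independent, spans 70.5 to 86.2 CPM. Without tumor 5 the gene still spanned 7.88-fold, which rests on the 7 counts of tumor 1. Axl, a receptor tyrosine kinase, was at 3.39, 1.20, 5.33, 2.13, 2.00 and 1.37 CPM, from 3 to 22 counts. The Poisson interval of tumor 3, 3.34 to 8.08 CPM, overlaps those of tumors 1, 2, 4 and 5 and lies above that of tumor 6. Axl was highest in tumor 3, where the 9 immune markers summed to 222 CPM, with Lyz2 at 148 CPM, against 15.5 to 49.9 CPM in the other tumors. Ptprc, the gene of CD45, was at 0.797 to 3.39 CPM in the 6 libraries. The part of immune RNA in the Axl values was not tested.

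**Figure D2:**
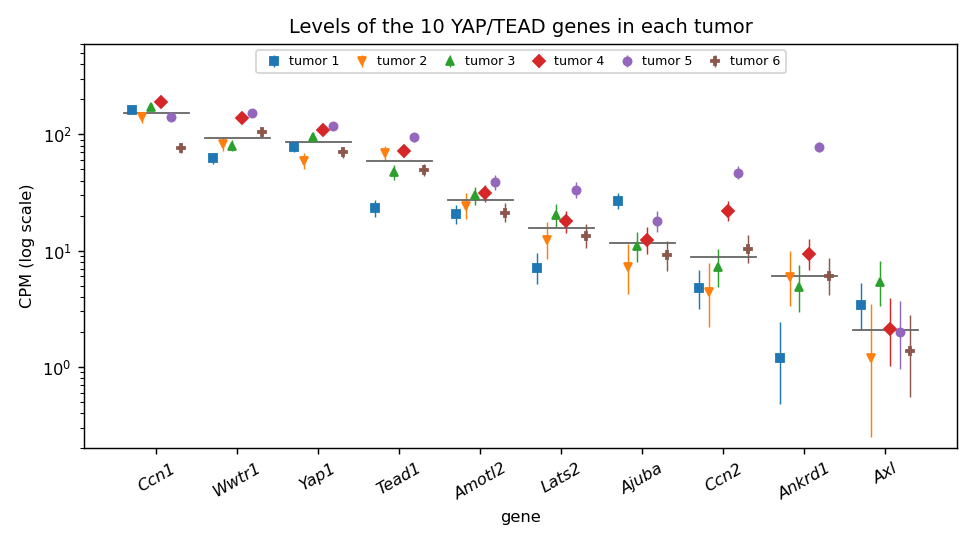
Level of each of the 10 genes in each tumor, in CPM on a log scale. Points are tumors, vertical bars are exact 95% Poisson intervals of the counts, which cover counting error at most, and grey lines are medians over the 6 tumors. Ankrd1 in tumor 5, at 78.1 CPM, stands far above the other tumors.

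By median TPM the order of the genes was Ccn1, Wwtr1, Yap1, Tead1, Amotl2, Ajuba, Ccn2, Lats2, Ankrd1 and Axl. On that scale the first 3 steps of this order held in 6 of 6 tumors and each later step in 2 to 5 of 6. The method reads the 3′ end of a transcript, where counts do not grow with length, and TPM then lowers long genes such as Tead1. By CPM the 4 genes with the highest medians were the same, but Ccn1 was above Wwtr1 and Wwtr1 above Yap1 in 4 of 6 tumors and Yap1 above Tead1 in 5 of 6. Tead1 was above Amotl2 in 6 of 6 by CPM and in 4 of 6 by TPM. The steps that hold in every tumor thus depend on the scale.

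Of the 10 genes, 8 had a highest over lowest ratio of at least 2 after TMM scaling, and so did 69.0% of the 12088 genes tested. Without tumor 1, 8 of the 10 genes still had such a ratio, against 43.7% of all genes. The ratio was 65.2 for Ankrd1, 10.0 for Ccn2, 4.61 for Lats2 and 4.03 for Tead1, and Ajuba, Axl, Wwtr1 and Ccn1 lay between 2.25 and 3.96. A further measure of spread between tumors was edgeR's dispersion over its trend at the same abundance. In it Ankrd1 ranked 18 and Ccn2 ranked 164 of 12088 genes, whereas Axl ranked 5751 and Ccn1 ranked 6883.

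Most members had their highest level in 1 tumor. Tumor 5 had the highest TMM-scaled level for 7 of the 10 genes (Ccn2, Ankrd1, Amotl2, Yap1, Wwtr1, Tead1 and Lats2), against 14.9% of all genes tested. Tumor 1 had the lowest level for 5 of the 10 (Ankrd1, Amotl2, Wwtr1, Tead1 and Lats2), against 30.9% of all genes. By DESeq2's size factors that was 6 of 10. Tumor 2 had the lowest TMM-scaled level for 4 of the 10, against 21.9% of all genes. The libraries of tumors 1 and 2 had the lowest and the highest share of reads that name no gene, 16.1% and 41.4%. Tumors 1, 2 and 5 were picked after their values were seen. The 7 genes were the same number by CPM and by DESeq2's size factors, with 18.5% and 16.6% of all genes as the background. Without tumor 1, 8 of the 10 were highest in tumor 5, against 18.9% of all genes. When tumor 5 was left out, 7 of the 10 were highest in tumor 4, against 16.5%.

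Other listed targets of YAP did not all follow tumor 5. Of the 14 further targets that passed the filter, 5 were highest in tumor 5, where 14.9% of all genes were, and 4 in tumor 2, where 18.0% of all genes were. Without tumor 1, 7 of the 14 were highest in tumor 5, against 18.9% of all genes. Among these 14, the targets with the highest medians were not highest in tumor 5. After TMM scaling their highest over lowest ratios ran from 1.40 for Myof to 2.17 for Asap1. Tgfb2, a TGF-beta ligand, lay between 159 CPM in tumor 5, its lowest, and 308 CPM in tumor 1. Myof, a membrane repair protein, lay between 93.7 and 130 CPM, Asap1 between 44.8 and 91.7 CPM and Arhgef17 between 43.1 and 77.9 CPM. The 5 that were highest in tumor 5 were F3, Rbms3, Ccdc80, Fjx1 and Gadd45a, named after their values were seen. F3, tissue factor, was at 31.7 CPM in tumor 5 and at 0.797 to 9.57 CPM in the others. Rbms3 was at 31.9 against 8.37 to 12.3 CPM, and Ccdc80 at 13.0 against 0.679 to 5.09 CPM. Fjx1 was at 6.79 against 0.679 to 2.98 CPM, whereas Gadd45a, at 28.6 against 14.3 to 23.4 CPM, differed little. Igfbp3, an IGF binding protein, did not pass the filter, since it had 69 counts in tumor 5, or 13.8 CPM, and at most 0.390 CPM in any other tumor. Over all genes tested, 27 were highest in tumor 5 by at least 4-fold, and Ankrd1 was the one member among them.

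**Figure D3:**
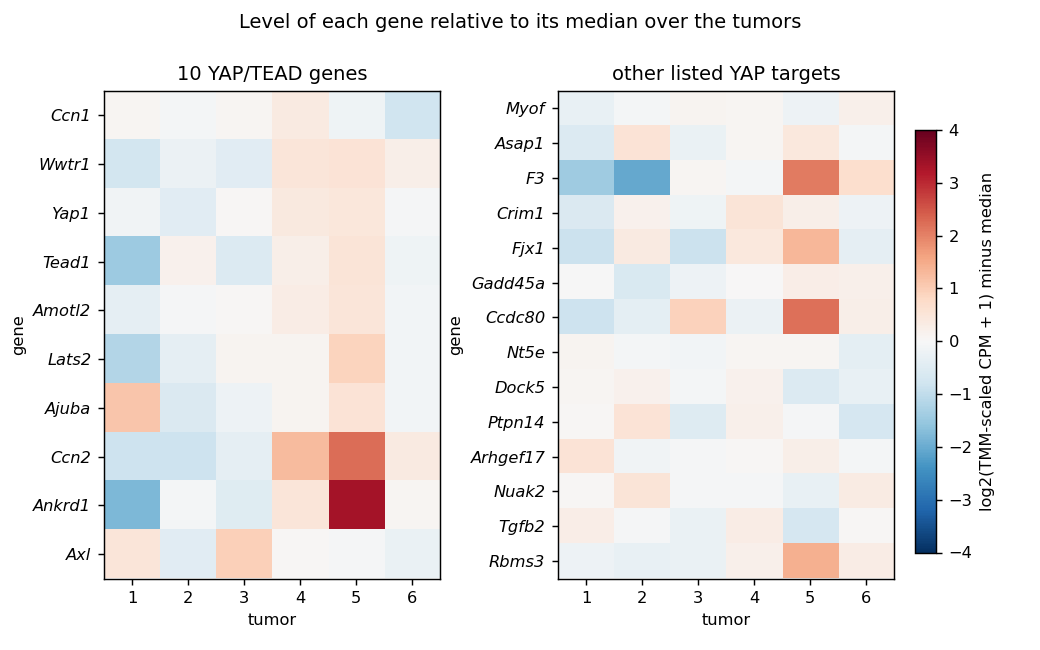
Log2 of TMM-scaled CPM plus 1, minus the median of the gene over the 6 tumors, for the 10 genes at left and the 14 other tested targets at right. Columns are tumors, and red is above and blue below the median. The column of tumor 5 is red for Ankrd1, Ccn2, F3, Ccdc80 and Rbms3 but not for Ccn1 or Tgfb2.

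Of the basal markers, 2 keratins stood high in tumor 5. The 8 markers of the list summed to 504 CPM there and to 132 to 289 CPM in the other 5 tumors. Krt14 was at 359 CPM and Krt17 at 127 CPM in tumor 5, whereas Krt5 was at 10.2 CPM, within the 4.24 to 17.4 CPM of the others. Trp63, the basal lineage factor, was at 4.59 CPM in tumor 5, the second lowest of the 6, and at 16.0 CPM in tumor 4, and Oxtr was at 2.00 CPM, within the 1.20 to 3.71 CPM of the others. The smooth muscle genes that define myoepithelial cells were at or near 0 in all 6 libraries, with Acta2 at 1.21 CPM or less and Myh11 and Cnn1 at 0.399 CPM or less. The part of basal-like cells in the tumor 5 values was not tested. The 10 immediate early genes listed, Fos and Jun among them, respond to tissue dissociation. They summed to 2996, 4724, 3379, 4511, 3886 and 4969 CPM in tumors 1 to 6. Ccn1 is itself an early response gene, and the part of dissociation in its values was not tested.

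The study asks how tumors differ with the hypoxia they develop under the antibody, and a score stood in for it. The score is the mean TPM of Vegfa, Slc2a1 and Car9, genes induced by low oxygen, and it was 48.5, 37.2, 51.4, 76.6, 94.4 and 47.3 in tumors 1 to 6. Each gene was fitted with edgeR's quasi-likelihood test against log2 of the score, so that a slope is the log2 change per doubling of the score. None of the 12088 genes passed an adjusted p of 0.05 (0% called), and so none of the 10 members did. Nor did the genes that make the score, with edgeR adjusted p of 0.760 for Car9, 0.885 for Vegfa and 0.967 for Slc2a1. The absence of calls therefore says little about the members. At an unadjusted p under 0.05 there were 512 genes, 3 members among them. DESeq2, the other tool run, called 15 genes (0.124%) and 1 member, Ccn2. In 1 simulation of this fit, with 200 genes given a slope of 2, 27.3% of DESeq2's calls and 12.1% of edgeR's were false. DESeq2 made 172 calls there, so the false share among the 15 calls here is not known.

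Ccn2 had a slope of 2.46 ± 0.436 (SE, n = 6 tumors), the sixth lowest p of all genes, with an adjusted p of 0.474 in edgeR and 0.00909 in DESeq2. It had its 2 highest levels in the 2 tumors with the highest scores, and its slope lay between 2.14 and 2.77 when each tumor was left out. Ankrd1 had a slope of 3.03 ± 0.719 (adjusted p = 0.736 in edgeR), which was 0.79 without tumor 5. Lats2 had a slope of 1.01 ± 0.42 (adjusted p = 0.967), which was 0.57 without tumor 5. Wwtr1, Yap1, Tead1 and Amotl2 had slopes of 0.52 to 0.72, Ajuba of 0.38 and Ccn1 of 0.20, while Axl was at -0.13. That of Tead1 was 0.20 without tumor 5 and 1.25 without tumor 2. Slopes were positive for 9 of the 10 members, with a median of 0.61, against 47.3% and a median of -0.03 for all genes.

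**Figure D4:**
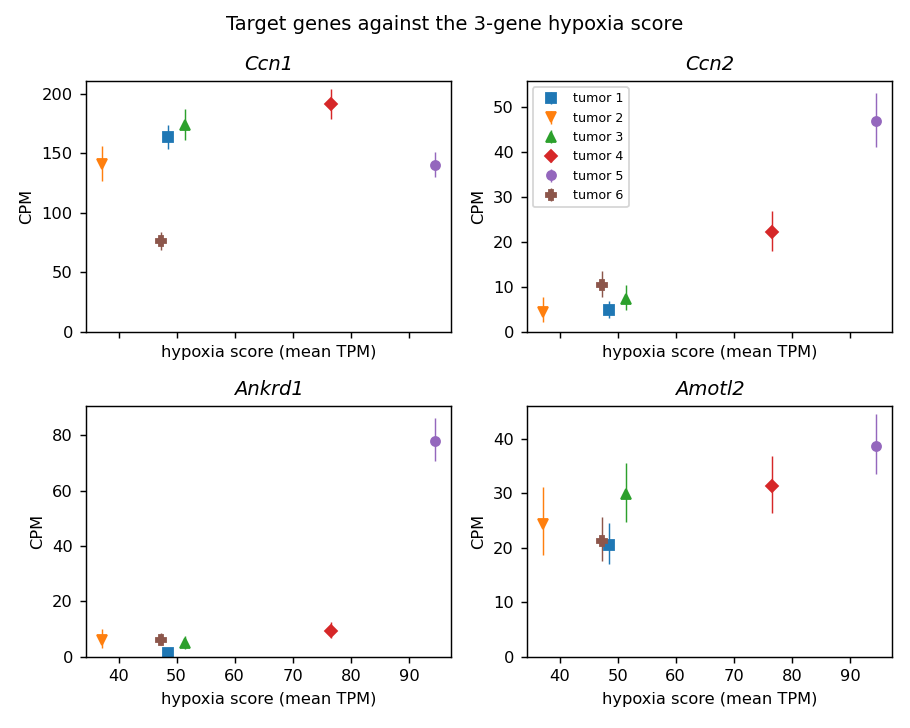
Levels of Ccn1, Ccn2, Ankrd1 and Amotl2 in CPM against the hypoxia score, a mean TPM of 3 genes, with 1 point per tumor and exact 95% Poisson intervals. Tumors 4 and 5 have the highest scores, 76.6 and 94.4, and the highest Ccn2, whereas for Ankrd1 tumor 5 alone is raised.

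The other fits asked whether the other genes varied with the transcripts of the coactivators or with Ccn1, per log2 unit of TMM-scaled CPM plus 1. Yap1, Wwtr1 and the hypoxia score were all highest in tumor 5 and next highest in tumor 4. The fits on them are therefore not independent, and slopes on the score, Yap1 and Wwtr1 cannot be told apart. On Yap1, edgeR called 0% of 12087 genes (591 at an unadjusted p under 0.05, and 2 genes but no member by DESeq2). All 9 other members had a positive slope, with a median of 0.74, as had 48.2% of all genes, and Ccn2 had the second lowest p, at a slope of 3.70 ± 0.728 (adjusted p = 0.875). On Wwtr1, edgeR again called 0% of 12087 genes, with 2009 at an unadjusted p under 0.05. The slope was 2.37 ± 0.425 for Ccn2 and 3.61 ± 0.736 for Ankrd1 (adjusted p = 0.215 for both), 1.12 ± 0.355 for Tead1 (adjusted p = 0.219) and 1.03 ± 0.395 for Lats2 (adjusted p = 0.259). The slopes of Yap1 and Amotl2 were 0.44 and 0.49, and those of Ccn1, Ajuba and Axl were negative, at -0.07, -0.32 and -0.81. Ankrd1 was at 1.90 without tumor 5. Without tumor 1, Tead1 was at 0.69 and Ajuba at 0.82.

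The Wwtr1 result turned on the analysis. DESeq2 called 296 genes (2.55% of 11618), among them Ccn2 (adjusted p = 0.00162) and Ankrd1 (adjusted p = 0.000803). The simulation of the fit on the score, where 27.3% of DESeq2's calls were false, was not run for Wwtr1. With the identifier prefix as a term, edgeR called 2160 genes, 17.9% of all, and 4 of the 9 members, Ccn2 at 2.21 (adjusted p = 0.0235), Ankrd1 at 4.32 (adjusted p = 0.0236), Tead1 at 1.53 (adjusted p = 0.015) and Lats2 at 1.41 (adjusted p = 0.0433). In the 4 QAF tumors alone, a fit added after the data were seen, the same 4 members were called among 2570 genes, 22.2% of the 11600 tested. Of these 4 tumors, tumor 1, whose library stood apart, had Wwtr1 at 62.1 CPM and the others at 104 to 153 CPM, so its part in these calls cannot be told apart from that of Wwtr1. With the prefix term left out and any 1 of the 6 tumors removed, edgeR called 0 genes on Wwtr1. Within QSD there are 2 tumors, too few for a fit.

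The fit on Ccn1 gave slopes of both signs among the members. In it, 0.00827% of 12087 genes was called, the single gene Mup5, of a multigene family whose reads can be shared between copies, and 86 genes had an unadjusted p under 0.05. DESeq2 also called 1 gene and no member. Mup5 had a negative slope and was at 65.9 TMM-scaled CPM in tumor 6 and at most 4.49 in the others. No member was called, 5 of 9 had a positive slope, and the median was 0.03, against 51.7% positive and a median of 0.02 for all genes. Ankrd1 had a slope of -1.29 ± 2.54 and Ccn2 of 0.03 ± 1.25, with errors wide enough for slopes of either sign.

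**Figure D5:**
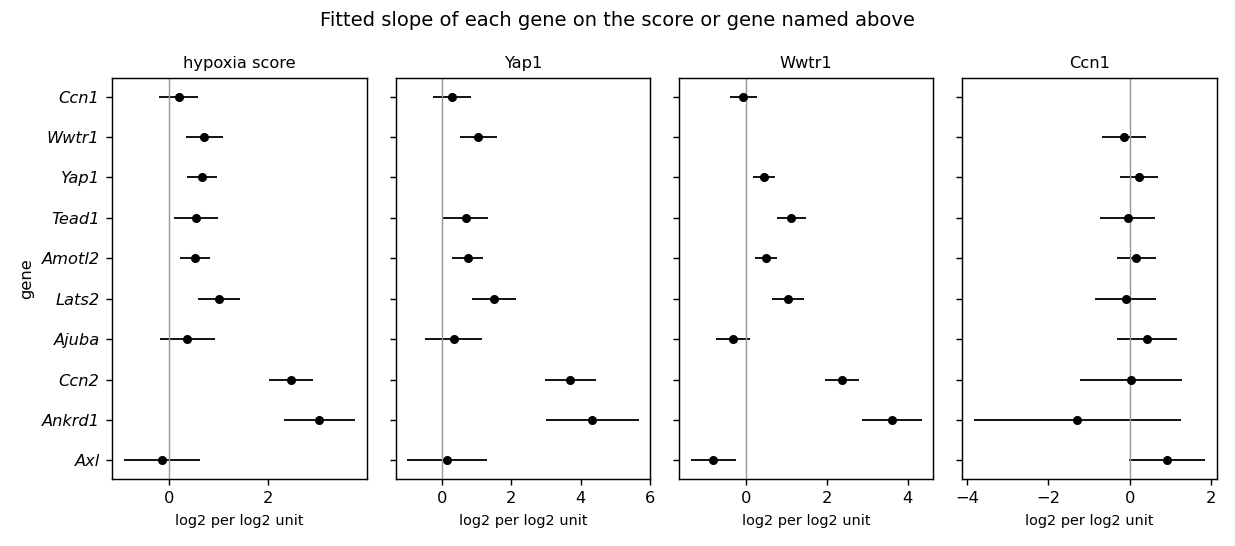
Slopes of the 10 genes (points) with their standard errors (bars) in the fits on the hypoxia score, Yap1, Wwtr1 and Ccn1, in log2 units per log2 unit, with n = 6 tumors. A gene has no point in the fit on itself, and Ccn2 and Ankrd1 have the highest slopes in the first 3 panels. The terms of those 3 panels share their highest tumor, so the panels are not independent.

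The rest of the pathway was followed through 2 further lists. Of 13 Hippo kinases and adaptors other than Lats2, none was called in the 4 fits by edgeR. In the fit on the score 9 of 13 slopes were positive, with a median of 0.16 and none at an unadjusted p under 0.05. Taok1, a kinase that acts above the Hippo kinases, had the highest median, 424 CPM, and lay at 94.0 CPM in tumor 1 against 315 to 550 CPM in the others. Map4k4, Wwc1 and Wwc2 were lowest in tumor 1 as well, at 148, 86.2 and 148 CPM. Of the 9 tested TEAD factors and cofactors that are not members, 3 had a positive slope on the score, with a median of -0.16. Tead2 had a slope of -0.82 ± 0.37 (adjusted p = 0.967), and on Wwtr1 of -0.89 ± 0.265 (adjusted p = 0.215). Amotl1, a relative of Amotl2, was at 65.2 CPM in tumor 1 and at 150 to 267 CPM in the others, Vgll4, a competitor of YAP for TEAD, at 153 to 386 CPM, and Wtip, a LIM protein related to Ajuba, at 109 to 201 CPM. Vgll1 and Vgll3, at 1.40 CPM or less, did not pass the filter.

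For 4 members the genes most alike over the 6 tumors were sought, among 8872 genes whose mean reached 10 CPM, by Pearson's r of log2(TMM-scaled CPM + 1). They are the highest of 8872 values over 6 points from the same libraries, and so are a description. Ccn1 was most like Rcan3 (r = 0.996), Fbxo38 (0.982) and 5730480H06Rik (0.965), and 10 genes had an r over 0.9 with it. Ccn2 was most like Rnf4 (0.993), Enc1 (0.986) and Vcan (0.985), with 99 genes over 0.9. Yap1 was most like Esyt2 (0.989), Lcp1 (0.986) and Zfand2a (0.975), with 41 over 0.9. Wwtr1 was most like Tmcc3 (0.991), Fam104a (0.990) and Zfp36l2 (0.988), with 208 over 0.9. No member was among these 12 genes.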

How the data were processed

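Libraries were made with QuantSeq 3′ FWD and a second-strand module with a 6-base UMI. The authors trimmed reads with bbduk, aligned them to GRCm38 with STAR 2.5 and counted them with HTSeq, and deposited raw read counts per gene. Whether UMIs were collapsed, whether strand was used and which annotation release was counted are not given in the sources used here. Intervals cover counting error at most, and are too narrow if copies of a molecule were counted. Lines that name no gene (from 16.1% of reads in tumor 1 to 41.4% in tumor 2) were left out. The paper's methods describe the sort as CD45-CD31-PDGFRα-EPCAM+.

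From the counts, CPM over all genes and TPM over the union of exons (GENCODE M21, which names 47224 of the 47643 genes) were computed. In that annotation genes overlap Ccn2, Yap1, Wwtr1, Tead1 and Lats2, none with an exon in the last kilobase of the member. Slopes were tested with edgeR 4.0.16 (glmQLFit and glmQLFTest, TMM, filterByExpr set to 10 counts at least, 15 in total, for groups of 3) with Benjamini-Hochberg adjustment over all genes, at 0.05, in R 4.3.3. The SE is the absolute slope over the square root of F. DESeq2 1.42.0 was an alternative. On simulated data for the fit on the score, with 200 of 12088 genes given a slope of 2, edgeR recovered 40% (12.1% of 91 calls false) and DESeq2 62.5% (27.3% of 172 calls false). P-values rest on the spread between the 6 tumors, which edgeR moderates over all genes. Each tumor has an identifier of its own, but whether each came from a separate mouse was not checked. The 3 genes of the score were among the genes tested on it. The members, lists and tests were chosen with earlier results of these data known. Named genes are the members, the 4 genes of each pathway list with the highest median CPM, pathway genes called in a slope test, the 3 genes most alike for 4 members, and marker genes that lead a list. Other genes are named after their values were seen. Alternatives were other scalings, filters, thresholds, scores and tools, a term for the identifier prefix and each tumor left out.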

Additional observations from a re-analysis of the deposited data

Results flagged for a closer look

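In 3 of 19 measures 1 tumor stood apart, its gap to the nearest tumor exceeding Dixon's 95% critical value for 6 values as a share of the range of the 6 tumors. If values were normally distributed, chance would flag about 1 in 20 such groups, or 0.95 of 19. The values were CPM without a log, which can be skewed, and their distribution was not tested. The number expected by chance is therefore not known. Ankrd1 in tumor 5 had a gap of 0.894 of the range. The summed immune markers in tumor 3 had a gap of 0.834, with 222 CPM against at most 49.9 CPM elsewhere. The summed Hippo kinases and adaptors in tumor 1 had a gap of 0.640 on the low side, with 802 CPM against 1404 to 1742 CPM. The sum does not stand for each gene of the list. Taok1 was at 94.0 CPM in tumor 1 against 315 to 550 CPM elsewhere, whereas Stk4 was highest in tumor 1, at 126 CPM. The library of tumor 1 also stood apart over all genes. The measures share libraries and are not independent.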

How the results depend on the processing

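No paired analysis was possible because the 6 tumors form 1 group. All 90 alternative values of the member medians stayed within 1 SD of the tumors. That rule is loose, since leaving 1 tumor out can move a median only to a neighboring value. For Ankrd1 the SD was 29.7 CPM at a median of 6.01 CPM, and for Ccn2 16.5 CPM at a median of 8.81 CPM. Relative to CPM, TMM moved the median of all genes by -0.14 (log2) in tumor 3 and 0.18 in tumor 6. The share of genes with a 2-fold range was 43.7 to 66.4% with 1 tumor left out. For the score, DESeq2 called 15 genes and 1 member and the fit without the filter 10 genes. For Yap1, DESeq2 called 2 genes. For Wwtr1, DESeq2 called 296 genes and 2 members, the prefix term 2160 genes and 4 members, and QAF alone 2570 genes and 4 members. For Ccn1, DESeq2's size factors, the prefix term and QAF alone gave 0 genes and no filter 2. Without 1 tumor the calls were 0 to 3 genes for the score and for Yap1 (3 without tumor 1 in both), 0 for Wwtr1 and 0 to 1 for Ccn1, and no member was called. The causes were not tested.

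Several slopes that had not passed the threshold changed sign. With the prefix term, Axl was 0.18 and Ajuba -0.087 on the score, and Ajuba -0.28 on Yap1. In QAF alone, Ajuba was -0.15 on the score, Axl -0.55 and Ajuba -0.49 on Yap1, and on Ccn1 Ankrd1 was 0.45, Wwtr1 0.012, Tead1 0.10 and Lats2 0.032. With 1 tumor left out, slopes on the score ran from -0.68 to 0.44 for Axl and -0.011 to 0.51 for Ccn1. On Yap1 they ran from -0.64 to 1.07 for Axl, -0.45 to 1.20 for Ajuba and -0.080 to 0.54 for Ccn1. On Wwtr1 they ran from -0.74 to 0.82 for Ajuba and -0.39 to 0.052 for Ccn1. On Ccn1 they ran from -5.67 to 0.24 for Ankrd1, -0.58 to 0.17 for Tead1, -0.93 to 0.22 for Lats2, -1.13 to 0.47 for Ccn2, -0.14 to 0.30 for Amotl2, -0.040 to 0.46 for Yap1, -0.88 to 0.26 for Wwtr1 and -0.71 to 0.75 for Ajuba. No slope in these ranges passed the threshold. Depth limits Axl, with 3 to 22 counts a library, and Ankrd1 in tumor 1, with 7.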
